A study of Mus musculus with 5 samples.

Results

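Siglecs are a family of cell surface receptors that bind sialic acids, the acidic sugars that cap the glycan chains of most mammalian proteins and lipids. Of 18820 genes with their own row on the arrays, 7 are members described here, chosen by family membership and not by their values: *Siglec1*, *Siglece*, *Cd33*, *Siglech*, *Siglecg*, *Cd22* and *Mag*. Each has 1 row with its symbol alone. The arrays are 5 Affymetrix Mouse Gene 1.1 ST arrays, each hybridized with liver RNA of 1 adult C57BL/6 mouse. The 2 PBS mice received phosphate-buffered saline subcutaneously and the 3 CSF1-Fc mice received CSF1-Fc, the macrophage growth factor CSF1 of the pig fused to the Fc part of pig immunoglobulin, at the 1 mg/kg that the study's methods give for its mice. All were injected on 4 consecutive days and culled on day 5, so the comparison asks what this treatment did to the liver. The controls received no Fc protein, so the effects of the CSF1 and Fc parts cannot be told apart, and the labels give neither sex nor batch.

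Most Siglecs sit on leukocytes and carry a short inhibitory motif in their tail. When they meet sialic acid on the same or a neighbouring cell, Src family kinases phosphorylate that motif and it recruits the phosphatases SHP-1 (*Ptpn6*) and SHP-2 (*Ptpn11*), which dampen activation. Members without it include sialoadhesin (*Siglec1*), a long adhesion receptor of tissue macrophages that captures sialylated particles. They also include *Siglech*, which pairs with the activating adaptor DAP12 (*Tyrobp*). The members also divide by cell type, with *Siglece* and *Cd33* on myeloid cells, *Cd22* and *Siglecg* on B cells, *Siglech* on plasmacytoid dendritic cells and *Mag* on the glia that make myelin.

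After CSF1-Fc the myeloid members rose together and those of B cells and plasmacytoid dendritic cells did not pass the test. Transcripts of *Siglec1*, *Siglece* and *Cd33* were 8.92, 8.53 and 6.37 times as high as in PBS livers. *Mag* rose 1.77-fold from a low signal. *Cd22*, *Siglecg* and *Siglech* did not pass the test, with fold changes of 1.35, 1.12 and 0.953. At a limma adjusted p below 0.05, 4 of 7 members were higher and 0 lower, where 8.34% of all genes tested were higher and 3.95% lower. Over the 7 members the log2 fold change had a median of 0.83, the value of *Mag*, and over all genes of -0.08. *Siglecf* and *Siglec15*, also of the family, are outside these counts and did not pass the test. All CSF1-Fc livers lay above both PBS livers for 5 of the 7 members, as they did for 18.2% of all genes, and no member was lower in each treated mouse than in either control, as 29.3% of all genes were. The liver is a mixture of cells, and in bulk RNA more cells of a type and more RNA per cell cannot be told apart.

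**Figure D1:**
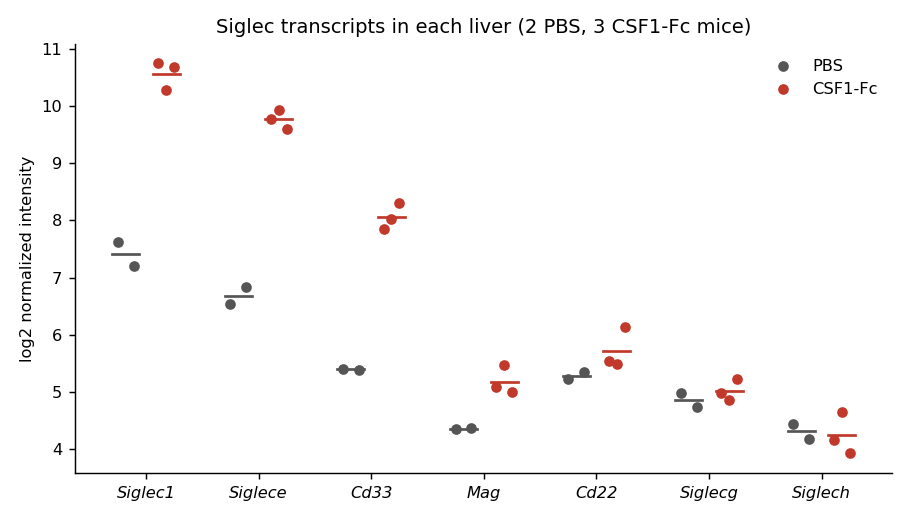
Log2 normalized intensity (vertical axis) of each Siglec transcript (horizontal axis) in each liver; grey points are the 2 PBS mice, red points the 3 CSF1-Fc mice and short lines the group means. The groups lie far apart for *Siglec1*, *Siglece* and *Cd33* and overlap for *Siglecg* and *Siglech*; each gene is read by its own probes, so heights are not comparable between genes.

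The arrays were close to each other in overall signal. The median intensity was 31.1 to 33.0 over the 5 arrays, and Pearson's r of the log2 values was 0.991 for the PBS pair, from 0.983 to 0.990 among treated mice and from 0.960 to 0.973 across groups. Hepatocyte markers were bright, with a summed intensity of 74310 to 78060 in PBS and 65910 to 73040 in CSF1-Fc livers, and 0 of 11 passed the test, the lowest p being that of the hepatocyte factor *Hnf4a* (log2 fold change -0.48, adjusted p = 0.114). As a guide to the level of genes that liver is not known to use, 1157 olfactory and vomeronasal receptor genes had a 95th percentile of mean log2 intensity of 4.20 in PBS and 4.06 in CSF1-Fc livers, and a gene whose group mean lay under it is called dim in that group. With 2 mice against 3, an exact two-sided permutation test cannot give a p under 0.2, so the tests below come from limma fitted across all rows.

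The DNA just before the start of these genes is shown, from the RefSeq promoter table (build GRCm38.p6), for *Siglece* and *Cd33*, myeloid members whose transcripts rose, and for *Cd22*, a leukocyte member that did not pass the test. Of the 7 members, 6 had an entry, all on chromosome 7, and *Siglec1* had none. Each run is the 250 bases before the listed start, 5′ to 3′ on the gene's own strand, and capitals mark GAGGAA or its reverse complement TTCCTC, the core letters of a site for PU.1, a transcription factor of myeloid and B cells.
*Siglece*, minus strand, chr7:43660162-43660411: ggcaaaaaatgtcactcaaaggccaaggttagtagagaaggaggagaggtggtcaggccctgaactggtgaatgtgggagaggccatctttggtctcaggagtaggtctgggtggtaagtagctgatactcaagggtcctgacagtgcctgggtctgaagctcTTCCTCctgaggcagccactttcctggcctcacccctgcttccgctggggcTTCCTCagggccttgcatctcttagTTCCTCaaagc
*Cd33*, minus strand, chr7:43533172-43533421: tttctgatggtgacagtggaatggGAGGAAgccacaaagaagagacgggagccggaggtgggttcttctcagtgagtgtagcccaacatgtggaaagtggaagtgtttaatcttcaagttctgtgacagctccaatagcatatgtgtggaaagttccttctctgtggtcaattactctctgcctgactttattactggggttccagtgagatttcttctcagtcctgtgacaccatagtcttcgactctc
*Cd22*, minus strand, chr7:30879029-30879278: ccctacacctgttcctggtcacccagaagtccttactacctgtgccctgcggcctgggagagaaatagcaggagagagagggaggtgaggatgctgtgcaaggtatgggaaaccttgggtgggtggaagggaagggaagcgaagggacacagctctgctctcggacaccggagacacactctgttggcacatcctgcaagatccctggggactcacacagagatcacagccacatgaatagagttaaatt

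The *Siglece* window held these letters 3 times, beginning at positions -87, -36 and -11 counted back from the start, the *Cd33* window once, at -226, and the *Cd22* window 0 times. They also occurred before 2 of 3 listed starts of *Mag*, 1 of 2 of *Siglecg* and 0 of 1 of *Siglech*. The window of *Siglecf*, which is outside the 7 members and did not pass the test, held them once, at -65. Over all 32851 promoters of the same length, searched on both strands, 23.3% held them. The letters GAAANNGAA, core of an interferon response element, were in 7.13% of all promoters and in none of the windows searched. *Siglec1* had no window and was not searched. A match is a run of letters and not a measured binding site. Along chromosome 7 *Cd22* and *Mag* are neighbours.

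*Siglec1*, the sialoadhesin of tissue macrophages, had the largest estimated change of the family. Its log2 intensity was 7.62 and 7.21 with PBS and 10.75, 10.28 and 10.69 after CSF1-Fc. The groups lay more than 2 log2 units apart, and CSF1-Fc replicate 2 was the lowest of the treated mice. The means were 7.41 ± 0.29 (SD, n = 2) and 10.57 ± 0.25 (SD, n = 3), a log2 difference of 3.16 (standard error 0.20, 95% interval 2.66 to 3.65, adjusted p = 0.00045). With no moderation of the variance the adjusted p was 0.0503.

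*Siglece*, an inhibitory receptor of neutrophils, monocytes and macrophages, rose by nearly the same amount. Log2 intensities were 6.53 and 6.83 with PBS and 9.77, 9.94 and 9.60 after CSF1-Fc, with no overlap. The log2 fold change was 3.09 (standard error 0.16, 95% interval 2.70 to 3.49, adjusted p = 0.000375). Here CSF1-Fc replicate 2 was the highest treated mouse, where it was the lowest for *Siglec1*.

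*Cd33*, a receptor of myeloid cells from their progenitors onward, was at 5.40 and 5.38 with PBS and 7.85, 8.03 and 8.31 after CSF1-Fc. The PBS mice were nearly equal and the groups did not overlap. Its log2 fold change was 2.67 (standard error 0.17, 95% interval 2.27 to 3.07, adjusted p = 0.000447). The intervals of the 3 myeloid members overlapped one another, and differences between their rises were not tested.

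Transcripts that mark myeloid cells rose in the same livers. For the counts that follow, 8.34% of all genes were higher and 3.95% lower. All 13 macrophage markers were higher, with a median log2 fold change of 2.47, and their summed intensity went from 4236 to 4313 in PBS livers to 18570 to 19470 in CSF1-Fc livers. The largest rises were those of the Fc receptor *Fcgr1* (3.66), *Cd68* (2.87) and the macrophage surface marker *Adgre1* (2.62). Of 10 Kupffer cell markers, 9 were higher and 0 lower, led by *Timd4* (2.72), *Cd163* (2.60) and *Cd5l* (2.58), and their summed intensity was 7335 to 8079 in PBS and 23950 to 24630 in CSF1-Fc livers. Of 7 inflammatory monocyte markers, 6 were higher and 0 lower, led by *Plac8* (4.14), *Ms4a4c* (3.83) and *Ccr2* (3.58), and their summed intensity was 4412 to 4755 and 4862 to 6247. *Fn1*, which hepatocytes also make, held 4215 and 4589 of that sum in the PBS livers and 2334 to 4135 in the CSF1-Fc livers. Of 11 neutrophil markers, 9 were higher and 0 lower, led by *Retnlg* (4.17), *S100a8* (3.97) and *Mmp9* (3.30), with a summed intensity of 353.4 to 2154 and 2620 to 3261, where *Lcn2*, which hepatocytes also make, held 1857 of the 2154 in PBS replicate 1. With no variance moderation the calls of *Cd68*, *Cd163*, *Plac8*, *Ccr2*, *Retnlg*, *S100a8* and *Mmp9* were lost, at adjusted p = 0.0503 for *Cd68* to 0.127 for *S100a8*. No marker of these lists was dim in both groups. The part of these cells in the rise of *Siglec1*, *Siglece* and *Cd33* was not tested.

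Set against the macrophage markers array by array, the members fell into separate patterns. The log2 intensity of *Siglec1* minus the mean log2 intensity of the 13 macrophage markers was 0.11 and -0.23 with PBS and 1.03, 0.68 and 1.03 after CSF1-Fc, a mean difference of 0.97 between the groups. For *Siglece* this quantity was -0.98 and -0.62 with PBS and 0.06, 0.33 and -0.06 after CSF1-Fc, a mean difference of 0.91. Every treated mouse lay above both controls on this scale for both genes. *Cd33* differed less, by 0.49, from -2.11 and -2.06 to -1.86, -1.58 and -1.36. *Mag*, *Cd22*, *Siglecg* and *Siglech* were lower on this scale in each treated mouse than in either control, by 1.36, 1.75, 2.02 and 2.25 on average. These are descriptions with no test, and the differences follow each gene's own change less the markers' mean change of 2.18.

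**Figure D2:**
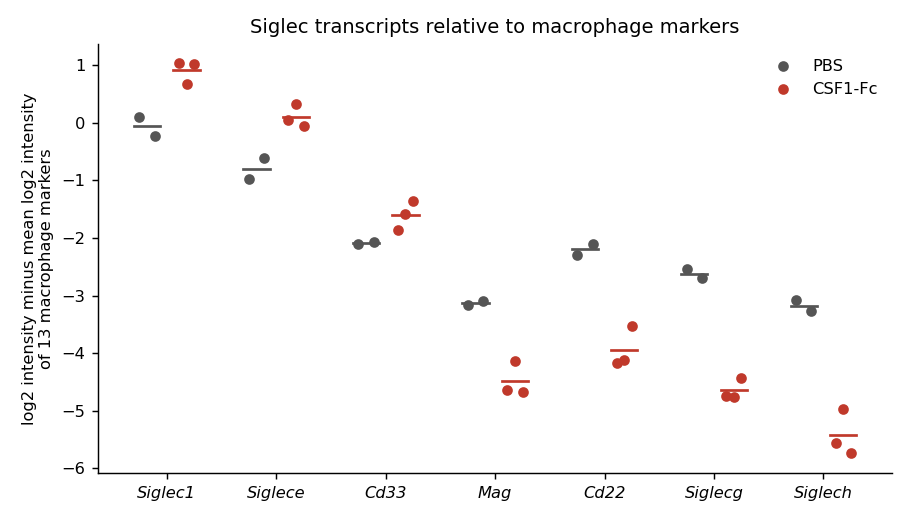
Log2 intensity of each Siglec transcript minus the mean log2 intensity of 13 macrophage markers on the same array (vertical axis), by gene (horizontal axis); grey points are PBS livers, red points CSF1-Fc livers and short lines group means. *Siglec1*, *Siglece* and *Cd33* lie higher in all CSF1-Fc livers and the other members lower.

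The genes whose centred values were nearest to each member that passed the test were found over the 5 arrays, as a description. For *Siglec1* they were *Oas3*, an interferon-induced sensor of double-stranded RNA, at a root mean square difference of 0.07 log2 units, *Ifi209*, an interferon-inducible gene, at 0.10 and *Sgo2a*, a protector of cohesin, at 0.11. Nearest to *Siglece* were *Stmn1*, a microtubule regulator of dividing cells (0.13), *S100a4* (0.14) and the centromere gene *Cenpn* (0.15). *Cd33* was nearest to *Dock11* (0.08), *Ect2* (0.10) and *Dock2* (0.11), which activate small GTPases. *Mag* was nearest to *Polr2d* (0.04), *Eid1* (0.06) and *Ran* (0.06). Their tests lay near the threshold, with adjusted p = 0.0261 for *Polr2d*, 0.046 for *Eid1* and 0.0505 for *Ran*, and each crossed it under several alternatives. With 5 arrays in 2 groups, the measure includes the size of the change itself.

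*Mag*, the myelin-associated glycoprotein, is known for its place in the myelin sheath and had a low signal in these livers. It was at 4.35 and 4.36 with PBS and 5.07, 5.47 and 4.99 after CSF1-Fc. The PBS mice lay just above the olfactory receptor guide of 4.20, and all treated mice lay above both. Its log2 fold change was 0.83 (standard error 0.18, 95% interval 0.40 to 1.25, adjusted p = 0.0377). This call was lost without PBS replicate 1 (adjusted p = 0.183), without PBS replicate 2 (0.206), without CSF1-Fc replicate 1 (0.103), with a pseudocount of 16 (0.0666), with the replicate number as a block (0.0564) and with no moderation of the variance (0.19). Of 8 myelin and Schwann cell markers, 2 were higher and 0 lower, *Pmp22* (1.65) and *Cnp* (0.75), both also expressed outside glia, and the *Cnp* call was lost without PBS replicate 1, PBS replicate 2 or CSF1-Fc replicate 1. Over all genes 8.34% were higher and 3.95% lower. The list's summed intensity was 499.6 to 548.1 in PBS and 1060 to 1128 in CSF1-Fc livers. Most of it came from *Pmp22* and *Cnp*. *Pmp22* held 226.5 and 174.8 in the PBS livers and 571.9 to 691.2 in the CSF1-Fc livers. *Cnp* held 213.9 and 223.1 in the PBS livers and 330.7 to 424.4 in the CSF1-Fc livers. *Mobp* and *S100b* were dim in both groups. Myelin oligodendrocyte glycoprotein *Mog* was at 4.21 and 4.37 with PBS and 4.08, 4.19 and 3.88 after CSF1-Fc, all below both PBS livers, and did not pass the test (log2 fold change -0.24, adjusted p = 0.397).

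*Cd22*, the inhibitory co-receptor of the B cell receptor, was at 5.22 and 5.35 with PBS and 5.54, 5.48 and 6.13 after CSF1-Fc. All treated mice lay above both controls, with CSF1-Fc replicate 3 apart from the other two. The log2 fold change was 0.43 (standard error 0.22, 95% interval -0.10 to 0.96, adjusted p = 0.305). *Siglecg*, the inhibitory Siglec of B-1 cells, was at 4.97 and 4.74 with PBS and 4.98, 4.85 and 5.23 after CSF1-Fc, which overlapped. Its log2 fold change was 0.16 (standard error 0.17, 95% interval -0.23 to 0.56, adjusted p = 0.625). The intervals allow up to a 1.95-fold rise of *Cd22* and a 1.48-fold rise of *Siglecg*.

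B cell markers moved unevenly beside them. Of 11 measured, 4 were higher and 0 lower, where 8.34% of all genes were higher and 3.95% lower. The rises were led by the receptor signalling chains *Cd79b* (1.90) and *Cd79a* (1.58) and by *Cd37* (1.77). The B lineage factor *Pax5* differed by 0.08 on the log2 scale (adjusted p = 0.771) and *Cr2* was dim in both groups. Summed intensity of the list was 286.4 to 296.0 in PBS and 664.1 to 711.8 in CSF1-Fc livers. A part of B cells in the values of *Cd22* and *Siglecg* was not tested.

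*Siglech*, a marker of plasmacytoid dendritic cells, was at 4.43 and 4.18 with PBS and 4.15, 4.64 and 3.92 after CSF1-Fc. The groups overlapped, and both lay close to the olfactory receptor guide. The log2 fold change was -0.07 (standard error 0.23, 95% interval -0.63 to 0.49, adjusted p = 0.902), so a rise of more than 1.40-fold lay outside the interval. Its sign turned with quantile normalization (0.023), with arrays centred on liver secreted proteins (0.14), with the replicate block (0.089) and when PBS replicate 1 (0.056) or CSF1-Fc replicate 3 (0.089) was left out. Of 10 plasmacytoid dendritic cell markers, 1 was higher and 0 lower, a share near the 8.34% of all genes that were higher. The higher marker was *Irf8* (2.26), which monocytes and macrophages also express. The markers' summed intensity was 1876 to 1958 in PBS and 2594 to 2801 in CSF1-Fc livers, and *Ccr9* and *Cd209d* were dim in both groups.

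Mouse Siglecs outside the 7 members did not pass the test. *Siglecf*, a receptor of eosinophils and alveolar macrophages, was at 4.99 and 4.86 with PBS and 5.34, 5.27 and 5.27 after CSF1-Fc. All treated mice lay above both controls, by a log2 difference of 0.37 (standard error 0.12, 95% interval 0.07 to 0.67, adjusted p = 0.137), and with array weights it passed (adjusted p = 0.0351). Of 7 eosinophil markers, 1 was higher and 0 lower, the chemokine receptor *Ccr3* (1.48, a call lost without PBS replicate 1 or PBS replicate 2), and *Prg2*, *Epx* and *Il5ra* were dim in both groups. Over all genes 8.34% were higher. The eosinophil list's summed intensity was 103.4 to 106.6 in PBS and 132.2 to 192.3 in CSF1-Fc livers. *Siglec15*, a receptor of osteoclasts, overlapped between the groups, with a log2 difference of 0.04 (standard error 0.14, adjusted p = 0.909).

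**Figure D3:**
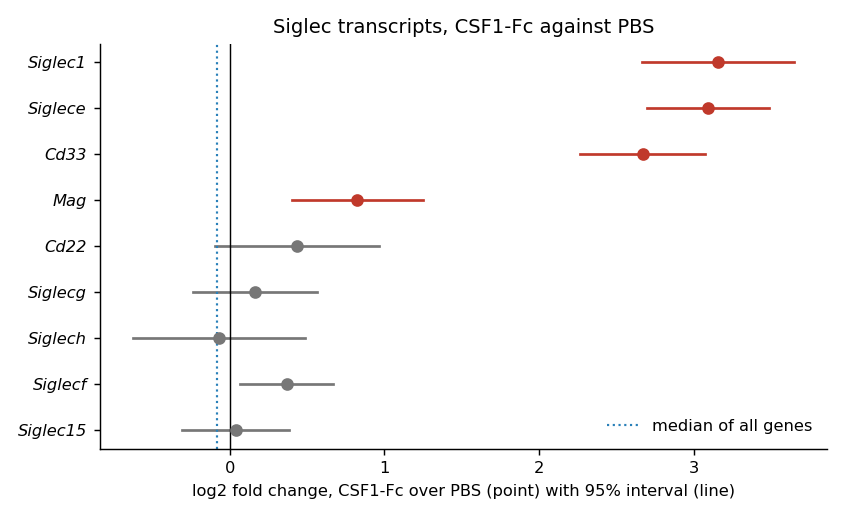
Log2 fold change, CSF1-Fc over PBS (horizontal axis), of the 7 Siglec members and of *Siglecf* and *Siglec15*; points are limma estimates, lines 95% intervals, red marks an adjusted p under 0.05 and the dotted line is the median of all genes (-0.08). *Siglec1*, *Siglece* and *Cd33* stand between 2.67 and 3.16, and *Mag* at 0.83.

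Genes through which Siglecs signal rose for the most part. Among 13 with a value, 9 passed the test as higher and 0 as lower, where 8.34% of all genes were higher and 3.95% lower. Their median log2 fold change was 1.67, against -0.08 over all genes. The largest rises were those of the kinase *Btk* (3.08), the exchange factor *Vav1* (2.88), the adaptor *Tyrobp* (2.80), the lipid phosphatase *Inpp5d* (2.62) and the Src family kinase *Fgr* (2.40). *Tyrobp*, which encodes DAP12, was at 9.27 and 8.87 with PBS and 11.81, 12.25 and 11.56 after CSF1-Fc, with no overlap (adjusted p = 0.000984, and 0.0696 with no variance moderation). *Siglech*, a partner of DAP12, did not pass the test.

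The phosphatases that inhibitory Siglecs recruit were picked out after their values were seen. *Ptpn6*, which is mostly of blood cells, was at 7.45 and 7.72 with PBS and 9.47, 8.99 and 9.31 after CSF1-Fc, a log2 difference of 1.67 (standard error 0.19, adjusted p = 0.00305). Its call was lost with no variance moderation, where only *Btk*, *Vav1*, *Inpp5d* and *Fgr* of the signalling partners stayed higher. *Ptpn11*, which most cells express, was at 8.94 and 8.93 with PBS and 8.87, 8.81 and 8.96 after CSF1-Fc, a log2 difference of -0.06 (standard error 0.12, 95% interval -0.36 to 0.24, adjusted p = 0.842). The groups overlapped for *Ptpn11* and lay apart for *Ptpn6*. These genes serve many other leukocyte receptors, so their values are not specific to Siglecs.

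**Figure D4:**
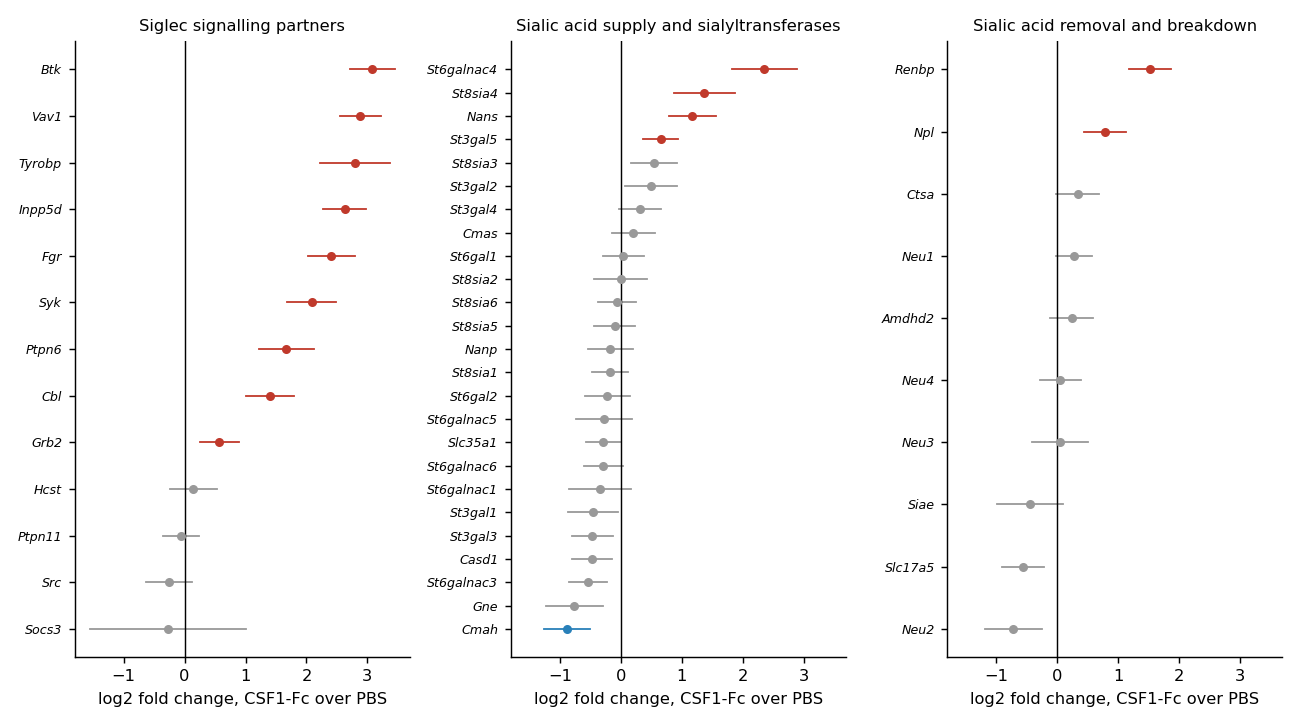
Log2 fold change, CSF1-Fc over PBS (horizontal axis), of each measured gene of 3 lists; points are limma estimates, lines 95% intervals, red marks higher and blue lower at an adjusted p under 0.05, grey neither. Of the signalling partners 9 of 13 were higher, of sialic acid supply and sialyltransferase genes 4 of 25 higher and 1 lower, and of removal and breakdown genes 2 of 10 higher. The shares over all genes were 8.34% higher and 3.95% lower.

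The ligand side is set by genes that make sialic acid and transfer it to glycans. Among 25 with a value, 4 passed the test as higher, 1 as lower and 20 not at all, around a median log2 fold change of -0.17. Over all genes 8.34% were higher, and the 1 lower gene is a share near the 3.95% that were lower. In 7 of them all CSF1-Fc livers lay above both PBS livers, against 18.2% of all genes, and in 9 all lay below, against 29.3% of all genes. Sialyltransferases, which add the sugar in a given linkage, were higher for *St6galnac4* (2.35), *St8sia4*, which builds polysialic acid (1.36), and *St3gal5*, which makes the ganglioside GM3 (0.65). Also higher was *Nans*, the synthase of the phosphorylated sialic acid (1.17).

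*St6galnac4*, which adds sialic acid to short O-linked glycans, was at 5.82 and 5.46 with PBS and 8.07, 8.27 and 7.65 after CSF1-Fc. The groups lay far apart, a 5.11-fold rise (adjusted p = 0.00148). *Cmah*, the hydroxylase that turns Neu5Ac, the common sialic acid, into Neu5Gc, was lower in every treated mouse. Its intensity, on the linear scale, was 2046 and 2014 with PBS and 1095, 965.5 and 1271 after CSF1-Fc, and it fell by 0.88 on the log2 scale (standard error 0.16, adjusted p = 0.0197). The 2 forms are bound to different degrees by different Siglecs. *Gne*, the rate-limiting enzyme of sialic acid synthesis, picked out after its values were seen, was at 10.68 and 10.94 with PBS and 9.95, 9.84 and 10.36 after CSF1-Fc and did not pass the test (log2 fold change -0.76, adjusted p = 0.0664). *St6gal1*, which makes the ligand that CD22 prefers and was likewise picked out later, had a log2 difference of 0.04 (adjusted p = 0.912).

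Several of these calls rest on few mice. Those of *St8sia4*, *Nans*, *St3gal5* and *Cmah* were lost without PBS replicate 1 and also without PBS replicate 2, those of *St3gal5* and *Cmah* also without CSF1-Fc replicate 1, and that of *St3gal5* with the replicate block (adjusted p = 0.0944). With no variance moderation those of *St6galnac4* (adjusted p = 0.0769), *St8sia4* (0.139), *Nans* (0.0931) and *Cmah* (0.129) were lost.

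Of the genes that remove or break down sialic acid, few passed the test. Among 10 with a value, 2 passed the test as higher, 0 as lower and 8 not at all, with a median log2 fold change of 0.15. Over all genes 8.34% were higher and 3.95% lower. *Renbp*, which acts on the precursor N-acetylglucosamine, was at 5.59 and 5.38 with PBS and 7.15, 6.91 and 6.98 after CSF1-Fc, a log2 difference of 1.53 (standard error 0.14, adjusted p = 0.00151). *Npl*, the lyase that splits free sialic acid, was at 6.06 and 5.83 with PBS and 6.85, 6.69 and 6.64 after CSF1-Fc, a log2 difference of 0.78 (standard error 0.14, adjusted p = 0.0228). The groups did not overlap for either. The *Npl* call was lost without PBS replicate 1 (adjusted p = 0.0815), without PBS replicate 2 (0.194), without CSF1-Fc replicate 1 (0.0963), with the replicate block (0.0569) and with no variance moderation (0.116), and the *Renbp* call with no variance moderation (0.051). *Neu1*, the lysosomal sialidase, was picked out after its values were seen and had a log2 difference of 0.28 (adjusted p = 0.229).

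T and NK cell markers, measured for the remaining lymphocytes, were higher for 3 of 11 and lower for 0. Over all genes 8.34% were higher and 3.95% lower. The higher markers were *Gzmb* (2.26), *Nkg7* (1.95) and *Cd3g* (1.45). *Cd3e* (0.25), *Cd3d* (0.01) and *Cd8a* (0.16) did not pass the test. *Cd4* lay lower in all CSF1-Fc livers than in both PBS livers and did not pass either (-0.51, adjusted p = 0.0763). *Cd3d* and *Klrb1c* were dim in both groups. The *Nkg7* call was lost with quantile normalization (adjusted p = 0.0584), with a pseudocount of 16 (0.0855), with no variance moderation (0.252), and when PBS replicate 1 (0.129), PBS replicate 2 (0.216) or CSF1-Fc replicate 1 (0.122) was left out, and the *Cd3g* call with no variance moderation (0.0604). Their summed intensity was 247.6 to 269.2 in PBS and 434.5 to 676.6 in CSF1-Fc livers.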

How the data were processed

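Liver RNA of 5 mice was hybridized to 1-colour Affymetrix Mouse Gene 1.1 ST arrays. The deposited values are intensities that the authors normalized on a linear scale, 1 for each of 35556 transcript rows; how background was corrected and probes were normalized and summarised was not given in the sources used here. Scans were checked in Expression Console (version 1.1 in the submitters' processing notes) and taken into Partek Genomics Suite.

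Log2 of the deposited intensities was taken with no pseudocount and no filter. A limma model (limma 3.58.1, R 4.3.3) with a mean for each group was fitted by lmFit and moderated by eBayes. Its p-values were adjusted over every row by Benjamini-Hochberg, and 0.05 was the threshold. There were 3 residual and 3.34 prior degrees of freedom. In the platform annotation 21218 rows carried 1 gene symbol, 1881 several and 12457 none; a gene was read from its brightest row. Symbols were updated through Entrez identifiers to RefSeq. A row was called dim in a group when its mean log2 intensity lay under the 95th percentile of olfactory and vomeronasal receptor genes. The fit was tested on simulated data. No depth applies to arrays, whose number limits the precision. Replicates are separate arrays by their labels, and p-values measure the spread between these mice.

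The members, the lists (Siglec signalling partners, sialic acid supply and sialyltransferases, sialic acid removal and breakdown, macrophage, Kupffer cell, inflammatory monocyte, neutrophil, eosinophil, B cell, plasmacytoid dendritic cell, myelin and Schwann cell, T and NK cell and hepatocyte markers, and 29 measured liver secreted proteins, of which 0 passed the test) and the tests were chosen with earlier results of these data known. Named were all members, *Siglecf* and *Siglec15*, up to 5 of the largest called changes in each pathway list and 3 in each marker list, or the lowest p where none passed, and the 3 nearest genes of each called member. *Pax5*, *Cr2*, *Mog*, *Mobp*, *S100b*, *Ccr9*, *Cd209d*, *Prg2*, *Epx*, *Il5ra*, *Fn1*, *Cd3d*, *Cd3e*, *Cd4*, *Cd8a*, *Klrb1c*, *Ptpn6*, *Ptpn11*, *Gne*, *St6gal1*, *Neu1*, *Lcn2* and *Socs3* were named after their values were seen. *Lyn*, *St3gal6* and *St6galnac2* had no row with 1 symbol and were not analysed here. The alternatives tried for scaling were quantiles, each array's median and the mean of liver secreted proteins. Others were rows of mean log2 intensity of at least 5, rows with 1 symbol, the mean over rows of a gene, a pseudocount of 16, robust moderation along a variance trend (statmod 1.5.0), an unmoderated fit, weights per array, a block for the replicate number and leaving out each mouse.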

Additional observations from a re-analysis of the deposited data

How the results depend on the processing

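*Siglece* and *Cd33* passed the test under all 16 alternatives, with log2 fold changes of 2.91 to 3.30 and 2.29 to 2.88. *Siglec1* passed under 15 of 16, with 2.95 to 3.37, and *Mag* under 9 of 15. *Cd22*, *Siglecg* and *Siglech* passed under none. Without moderation of the variance, genes higher were 2 of the Siglec members, 1 of sialic acid supply and sialyltransferases, 0 of sialic acid removal and breakdown and 4 of the signalling partners, and 0 supply genes were lower. In that fit the calls of *Ccr3*, *Cd79a*, *Pmp22*, *Cnp*, *Oas3*, *Ifi209*, *Sgo2a* and *S100a4* were lost too. Supply genes lower were 3 with quantile normalization, 2 centred on the array median, 2 on rows of mean log2 of at least 5, 5 on rows with 1 gene symbol, 3 with a pseudocount of 16 and 6 with array weights. Removal and breakdown genes lower were 2 on rows of mean log2 of at least 5, 2 on rows with 1 symbol, 1 with a pseudocount of 16 and 2 with array weights. With each mouse left out in turn, Siglec members higher were 3 to 4, supply genes higher 1 to 5 and lower 0 to 2, breakdown genes higher 1 to 2 and lower 0 to 1, and signalling partners higher 8 in each case. Leaving out PBS replicate 1 or PBS replicate 2 gave 1 supply gene higher; leaving out either of these or CSF1-Fc replicate 1 gave 0 lower, and leaving out CSF1-Fc replicate 3 gave 2. Breakdown genes higher were 1 without either PBS replicate or CSF1-Fc replicate 1. The log2 fold change of *Siglech*, -0.069, turned to 0.023 with quantile normalization, 0.14 centred on liver secreted proteins and 0.089 with the replicate block, and ranged from -0.27 to 0.089 with a mouse left out. That of *Siglec15*, 0.040, turned to -0.046 with array weights and -0.0054 with the replicate block, and ranged from -0.077 to 0.16 with a mouse left out. The median of the supply list was 0.04 centred on liver secreted proteins, a scaling that moved the median of all rows by 0.21. On the log2 scale with a pseudocount of 16 the Siglec median was 0.52, and on rows of mean log2 of at least 5, which keep 4 members, it was 2.88.

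With the replicate number of the labels as a block, breakdown genes higher were 1 and signalling partners higher 8. The calls of *Mag*, *St3gal5*, *Npl*, *Cnp* and *Eid1* were lost and no other call of a gene named by the stated rule. *Ptpn6*, named after its values were seen, was not checked singly in that fit. Deviations of same-numbered mice correlated at -0.07 and -0.25. With 2 PBS arrays the PBS deviations mirror each other, so these values cannot show whether the numbers pair the mice. Signals near that of olfactory receptor genes limit *Siglech* and *Mag* in PBS livers, since a dim row understates a change.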

Other observations

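Relative to the mean log2 intensity of 10 Kupffer cell markers on the same array, *Siglec1* was at -1.31 and -1.58 with PBS and -0.09, -0.37 and -0.03 after CSF1-Fc, a mean difference of 1.28. *Siglece* differed by 1.22 and *Cd33* by 0.80 on that scale, with all CSF1-Fc livers above both PBS livers for each. The other 4 members lay lower in all CSF1-Fc livers, by 1.05 for *Mag* to 1.95 for *Siglech*. These values have no test.

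The PBS livers lay apart for some genes of inflammation. *Lcn2*, an iron-binding protein of neutrophils and of the acute phase, was at log2 intensities of 10.86 in PBS replicate 1 and 7.24 in PBS replicate 2, *Socs3*, a feedback inhibitor of cytokine signalling, at 7.46 and 5.48, and *S100a8* at 5.92 and 4.29. The Siglec members differed by 0.41 or less between these mice, and without PBS replicate 1 the log2 fold changes of *Siglec1*, *Siglece* and *Cd33* were 3.36, 2.95 and 2.68.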
